A study of Sus scrofa with 37 samples.

Results

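The genes described here are 10 genes of mononuclear phagocytes and of the CSF1 axis that supports them. They were looked up by symbol in a table of gene counts from contused pig skeletal muscle. They are the growth factor gene CSF1 and its receptor gene CSF1R, the scavenger and uptake receptor genes MARCO, MSR1, CD163, MRC1 and VSIG4, and the macrophage genes CD14, CD68 and LYZ. All 10 symbols had a row among the 9418 of the table, and all 10 passed the filter on low counts that left 9411 genes for testing. Every row of the table reaches at least 101 counts in some library. The highest control count was 7 for MARCO, 13 for LYZ, 24 for MSR1, 54 for CD68 and 95 for VSIG4. These genes reached that level only in injured libraries, so their higher values after injury are partly built into their having a row. Counts of calls and of non-overlap that include them are a description. The tissue was skeletal muscle of Bama minipigs, a Chinese miniature breed, after contusion, which is a blunt mechanical injury. Injured muscle was sampled every 4 h between 4 and 24 h and once more at 48 h, with 4 libraries at each of the 7 times, and 9 further libraries are labelled as controls. The design text gives 8 animals for the 37 libraries. Which libraries came from the same animal is not labelled, so every p-value here measures only the spread between libraries. The labels give no age, sex or genotype beyond the breed. They enter mechanical damage as the treatment of all libraries, the controls among them, and do not tell how control muscle was taken.

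Macrophages in injured muscle come from blood monocytes and from cells resident in the tissue. CSF1 binds CSF1R, a receptor tyrosine kinase, and through it supports the survival, growth and differentiation of these cells, while scavenger receptors on their surface take up bacteria, modified lipoproteins, dead cells and the haemoglobin released by bleeding. In muscle repair, early infiltrating phagocytes clear debris and later ones accompany regeneration and matrix rebuilding.

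Levels are given in CPM, the usual unit of counts scaled to a common library size, on column totals corrected by edgeR's TMM factors. They are not divided by gene length, so they are compared between libraries for 1 gene and not between genes. Fold changes are log2 values from edgeR's quasi-likelihood fit, and adjusted p-values are by Benjamini-Hochberg over the 9411 genes. A difference with an adjusted p under 0.05 is described as called. Column totals ran from 9.86 to 22.9 M counts, and 3 counts were worth 0.108 to 0.378 CPM. Summed counts of 7 muscle fibre genes lay between 25954 and 132068 CPM over all 37 libraries, so the tissue label held in each. Libraries also differed in ways the labels do not give. By column total and by the levels of C1QBP, NDUFAF8 and ND6, 5 sets of libraries stood apart from each other across times. Calls against control that the sets as a term of the fit ended or added are given in each gene's paragraph. All 16 h libraries and 8 h replicates 1 to 3 were in set 1 with controls 1 and 2, and all 48 h libraries were in set 5 with controls 6, 7 and 9. Of the 4 h libraries 3 were in set 2 and 1 in set 3, and neither set held a control. Differences of 4 h from control with the sets as a term were thus reached only through libraries of other times.

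Each of the 10 genes was called higher in injured than in control muscle at 1 or more of the 7 times, and the times of the highest means differed between genes. CSF1 was called higher than control from 4 h and had its highest mean at 8 h. CD14 also had its highest mean at 8 h. The mean of MRC1 was highest at 16 h and that of the haemoglobin receptor CD163 at 20 h. MSR1 and LYZ had their highest means at 24 h, and MARCO, CD68, VSIG4 and CSF1R had theirs at 48 h. At 4 h 3 of the 10 genes were called higher than control, where 9.22% of all genes tested were called higher. By 8 h 6 of the 10 were called, beside 25.8% of all genes, then 7 at 12 h, beside 16.3%, and 8 at 16 h, beside 25.3%. The count was 9 of 10 at 20 h (25.4% of all genes), at 24 h (26.8%) and also at 48 h (12.8%). None of the 10 was called lower than control by edgeR at any time, nor was any lower at an unadjusted p under 0.05 in the fit of all groups, while the share of all genes called lower was 9.06%, 28.2%, 14.7%, 27.8%, 26.2%, 27.1% and 7.45% from the first to the last time. A fit of only the groups compared did call CSF1R lower at 4 h (log2 fold change -0.78, adjusted p = 0.0348). In a joint test of the 7 times against control all 10 were called, as were 83.2% of all genes. The median log2 fold change of the 10 genes was 0.64, 1.98, 2.16, 2.09, 2.74, 2.53 and 2.26 from 4 to 48 h, while the median over all genes tested lay between -0.07 and -0.02. In bulk tissue, more macrophages, more of these RNAs per macrophage and RNA from other cells cannot be told apart. Fibroblasts and endothelium also make CSF1, and neutrophils also make CD14 and LYZ.

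**Figure D1:**
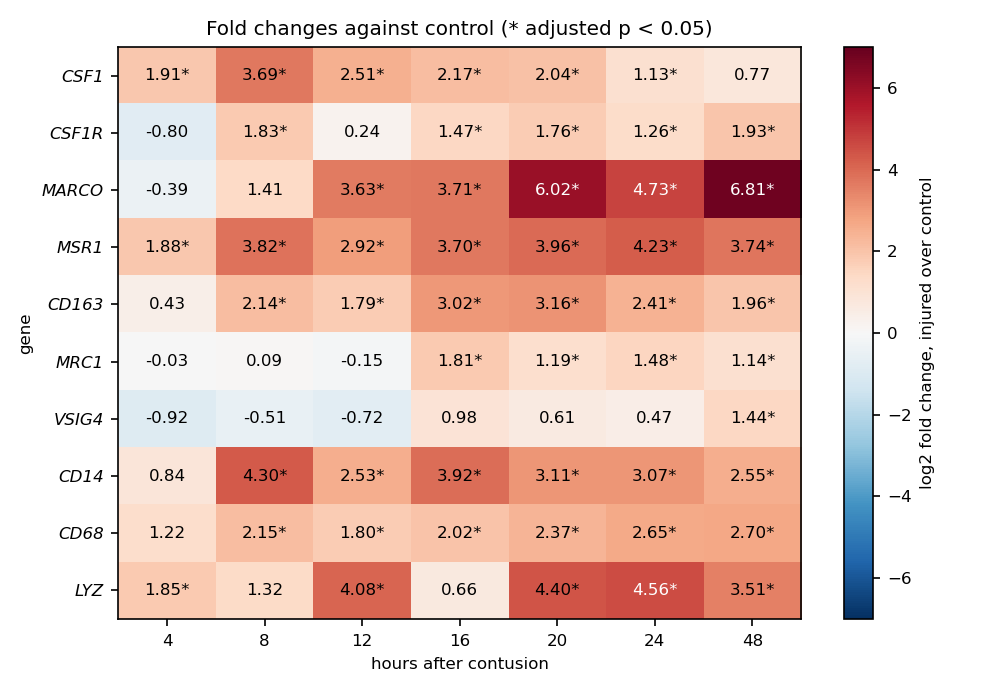
Heat map of log2 fold changes of the 10 genes (rows) at the 7 times after injury (columns), each against control, from the edgeR fit, with an asterisk where the adjusted p is under 0.05. The asterisks number 3 at 4 h and 9 at each of 20, 24 and 48 h, and MARCO at 48 h has the highest value, 6.81.

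CSF1, the growth factor of the macrophage lineage (Sscrofa11.1 chromosome 4, 110178466 to 110198232), was called from 4 h to 24 h and had its highest mean at 8 h. At 4 h its libraries had 27.6, 130.2, 95.2 and 38.1 CPM, at 8 h 354, 333, 234 and 81.9 CPM and at 12 h 180.0, 74.3, 49.8 and 137 CPM. The 16 h libraries had 101, 142, 63.0 and 44.0 CPM and the 20 h libraries 51.3, 76.7, 67.3 and 123 CPM. Lower values followed, 44.6, 25.3, 71.3 and 28.7 CPM at 24 h and 50.9, 20.5, 40.8 and 19.4 CPM at 48 h. The 9 control libraries had 9.84 at the lowest, 18.8 at the median and 30.8 at the highest CPM. Every library at 8, 12, 16 and 20 h was above every control, while 1 of 4 at 4 h and 2 of 4 at each of 24 and 48 h lay within the control range. CSF1 averaged 251 ± 124 CPM at 8 h and 19.3 ± 7.29 CPM in controls (SD, n = 4 and 9), a 12.9-fold difference (log2 fold change 3.69 ± 0.40 (SE), edgeR adjusted p = 1.38e-08). It was called at 4 h (log2 fold change 1.91 ± 0.39 (SE), edgeR adjusted p = 0.00143) and at each later time through 24 h (log2 fold change 1.13 ± 0.40 (SE), edgeR adjusted p = 0.0172), and not at 48 h (log2 fold change 0.77 ± 0.40 (SE), edgeR adjusted p = 0.181). The 24 h call was lost without 24 h replicate 3 (adjusted p = 0.142). On column totals CSF1 was called higher at 48 h (log2 fold change 1.20, edgeR adjusted p = 0.0359). With the library sets as a term the 16 h call was lost (log2 fold change 1.26, adjusted p = 0.0899). In that fit the log2 fold change was 2.92 at 8 h and 2.91 at 12 h, so 8 h did not stand above 12 h.

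CSF1R (Sscrofa11.1 chromosome 2, 151102138 to 151130311), the receptor on monocytes and macrophages for CSF1 and also for IL34, was not called at 4 h, when CSF1 was. At 4 h its libraries had 8.35, 13.2, 13.7 and 10.6 CPM, against control libraries with 12.5 at the lowest, 18.4 at the median and 33.1 at the highest CPM (log2 fold change -0.80 ± 0.45 (SE), edgeR adjusted p = 0.218), and 2 of the 4 were below the lowest control. The 4 h value depended on the fit: CSF1R was called lower when only the groups compared were fitted (adjusted p = 0.0348), and its log2 fold change was 0.02 (adjusted p = 0.988) with the library sets as a term. At 8 h they had 125, 81.8, 61.1 and 17.5 CPM and at 12 h 49.4, 24.4, 11.3 and 9.39 CPM. The 8 h values split, with 3 libraries above every control and replicate 4 inside the control range, and so did those at 12 h, with 1 above every control and 2 below the lowest. The 16 h libraries had 69.8, 80.9, 35.9 and 35.1 CPM and the 20 h libraries 57.0, 57.6, 64.5 and 93.5 CPM. At 24 h the values were 53.6, 37.4, 67.0 and 35.1 CPM, and at 48 h they were 146, 21.5, 111 and 27.4 CPM. All libraries at 16, 20 and 24 h were above every control, and at 48 h replicates 1 and 3 were above while 2 and 4 were not. CSF1R was called higher at 8 h (log2 fold change 1.83 ± 0.40 (SE), edgeR adjusted p = 0.000332) but not at 12 h (0.24 ± 0.43 (adjusted p = 0.700)). It was called again at 16 h (1.47 ± 0.40 (adjusted p = 0.00305)) and 20 h (1.76 ± 0.40 (adjusted p = 0.000540)). Calls also held at 24 h (1.26 ± 0.41 (adjusted p = 0.00943)) and 48 h (1.93 ± 0.40 (adjusted p = 0.000998)). With the library sets as a term the 8 h and 16 h calls were lost, at log2 fold changes of 1.12 (adjusted p = 0.103) and 0.64 (adjusted p = 0.441). The 24 h value was 1.99 in that fit. Without 48 h replicate 1 the 48 h call was lost (adjusted p = 0.0516).

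The balance of ligand and receptor reads differed between times. In each library the count of CSF1 was divided by that of CSF1R, a ratio that is not per length, so only its differences between groups are described. CSF1 reads per CSF1R read ran from 3.30 to 9.82 (median 5.25) at 4 h and from 2.83 to 4.67 (median 3.95) at 8 h. The 12 h range was 3.05 to 14.6 (median 4.02). At each of these times every library was above the highest control ratio, the controls running from 0.537 to 1.50 (median 0.907). The ratio then ran from 1.25 to 1.76 (median 1.60) at 16 h and from 0.900 to 1.33 (median 1.18) at 20 h. At the last times it was 0.675 to 1.07 (median 0.825) at 24 h and 0.348 to 0.956 (median 0.538) at 48 h. The 16, 20, 24 and 48 h libraries overlapped the controls, at 16 h for 2 of 4, and the 48 h median was the lowest of the 8 groups. These ratios are a description and were not tested.

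**Figure D2:**
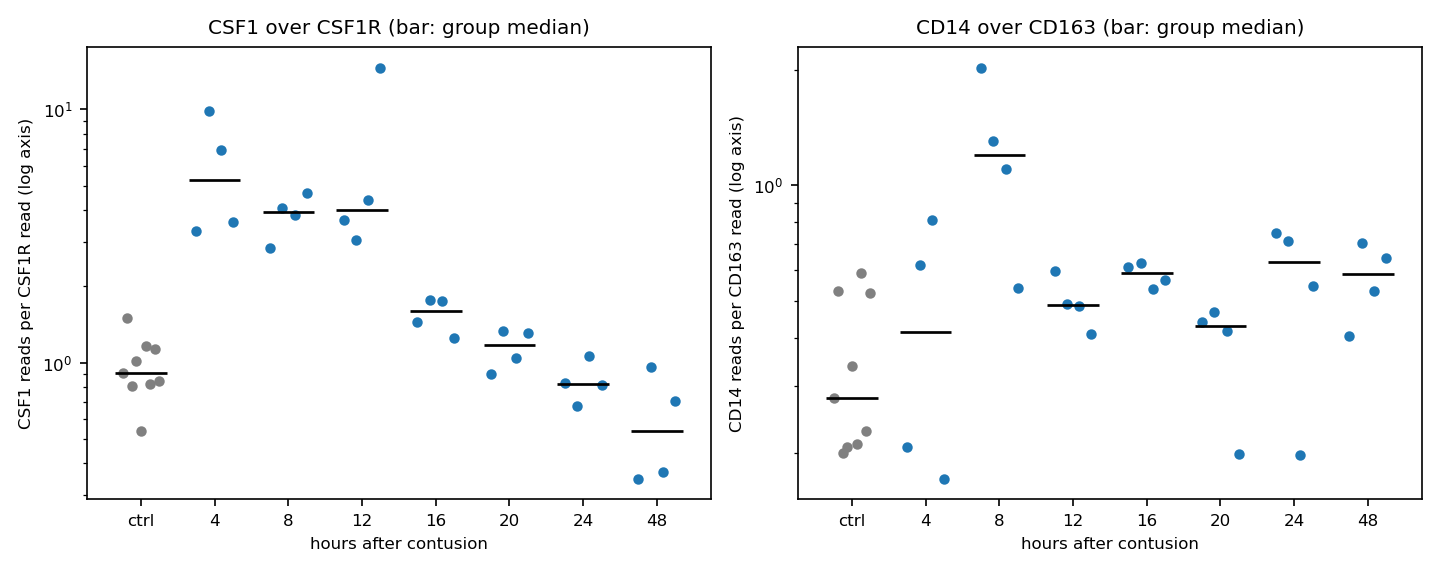
Ratio of read counts within each library for CSF1 over CSF1R and for CD14 over CD163, by group from control to 48 h on a log axis, 1 point per library and a bar at the group median. The CSF1 to CSF1R ratio of all 4 h, 8 h and 12 h libraries lies above the highest control ratio of 1.50.

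MARCO and MSR1 encode class A scavenger receptors, trimeric membrane proteins that bind bacteria, modified lipoproteins and other polyanionic ligands. MARCO (Sscrofa11.1 chromosome 15, 24502935 to 24541286) was close to absent from control muscle, with 14 counts in the 9 control libraries together and no count in 5 of them, which left the controls at 0 to 0.769 CPM. At 4 h the libraries had 0.114, 0.408, 0 and 0 CPM, at 8 h 0.542, 0.521, 0.504 and 0.110 CPM and at 12 h 3.90, 2.73, 1.39 and 0 CPM. No 4 h or 8 h library was above the highest control, while 3 of 4 at 12 h were and replicate 4 had no count. The 16 h libraries had 2.99, 2.73, 1.39 and 1.51 CPM and the 20 h libraries 2.89, 6.84, 7.55 and 25.5 CPM. At 24 h the values were 5.36, 3.01, 5.15 and 4.14 CPM, and at 48 h 52.4, 1.15, 19.1 and 1.26 CPM. No library from 16 h on overlapped the controls, and at 48 h replicates 1 and 3 stood far above replicates 2 and 4. MARCO was not called at 4 h (-0.39 ± 1.52 (adjusted p = 0.882)) or 8 h (1.41 ± 1.17 (adjusted p = 0.314)). It was called at 12 h (log2 fold change 3.63 ± 0.95 (SE), edgeR adjusted p = 0.00454) and 16 h (3.71 ± 0.91 (adjusted p = 0.00110)). The log2 fold change was 6.02 ± 0.85 (adjusted p = 1.63e-06) at 20 h and 4.73 ± 0.87 (adjusted p = 4.23e-05) at 24 h, and at 48 h 6.81 ± 0.85 (adjusted p = 3.10e-06). The control counts are few, so the sizes of these fold changes rest on small numbers. Without control 7, which holds the highest control value, all 5 called log2 fold changes were larger, from 4.42 at 12 h to 7.61 at 48 h. Single injured libraries weighed as well, with 5.12 at 20 h without replicate 4 and 5.42 at 48 h without replicate 1. The 16 h call was lost with the library sets as a term (adjusted p = 0.0882). The RefSeq span of MARCO overlaps 1 annotated pseudogene, which has no row in the count table, and the spans of the other 9 genes overlap no annotated gene.

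MSR1 (Sscrofa11.1 chromosome 17, 3859903 to 3939612) was the only gene of the 10 that was called at all 7 times. Its control libraries had 0.435 at the lowest, 1.47 at the median and 2.34 at the highest CPM, and at 4 h the libraries had 3.09, 7.44, 6.96 and 3.40 CPM, all above them. The 8 h libraries had 34.4, 23.6, 15.4 and 7.61 CPM, and the range was 4.70 to 20.8 CPM at 12 h and 12.9 to 24.1 CPM at 16 h. It was 10.3 to 44.1 CPM at 20 h and 12.5 to 56.8 CPM at 24 h, and the 48 h libraries had 38.4, 6.36, 28.9 and 2.51 CPM. No injured library fell inside the control range at any time. MSR1 averaged 27.0 ± 20.6 CPM at 24 h and 1.42 ± 0.612 CPM in controls (SD, n = 4 and 9), an 18.7-fold difference (log2 fold change 4.23 ± 0.52 (SE), edgeR adjusted p = 1.48e-07). At the other times after 4 h the log2 fold change lay between 2.92 at 12 h and 3.96 at 20 h. Without 24 h replicate 3 the 24 h value was 3.56, and without 48 h replicate 1 the 48 h value was 3.12. At 4 h it was 1.88 ± 0.55 (adjusted p = 0.0177), a call that was lost without 4 h replicate 2 (adjusted p = 0.0865), without 4 h replicate 3 (adjusted p = 0.0638) and with the library sets as a term (adjusted p = 0.113).

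CD163 and MRC1 mark macrophages often described as tissue resident or repair-associated. CD163 takes up haemoglobin bound to haptoglobin, and MRC1, the mannose receptor, internalises glycoproteins and collagen fragments. CD163 was called from 8 h and MRC1 from 16 h. CD163 (Sscrofa11.1 chromosome 5, 63300200 to 63334497) had 87.7, 69.0, 53.1 and 32.3 CPM at 8 h and 85.5, 50.9, 32.4 and 21.9 CPM at 12 h. The 16 h libraries had 142, 139, 86.6 and 78.9 CPM and the 20 h libraries 51.8, 68.5, 97.8 and 274 CPM, against 4.83 at the lowest, 13.8 at the median and 29.5 at the highest CPM in control libraries. The values at 8, 16 and 20 h were all above every control, and so were 3 of 4 at 12 h. CD163 was not called at 4 h (0.43 ± 0.47 (adjusted p = 0.559)), and was called at 8 h (2.14 ± 0.44 (adjusted p = 0.000174)) and 12 h (1.79 ± 0.45 (adjusted p = 0.00327)). It was also called at 16 h (3.02 ± 0.44 (adjusted p = 2.56e-06)) and 20 h (3.16 ± 0.44 (adjusted p = 1.42e-06)). Later the log2 fold change was 2.41 ± 0.44 (adjusted p = 3.96e-05) at 24 h and 1.96 ± 0.44 (adjusted p = 0.00217) at 48 h. Its highest mean was 123 ± 102 CPM at 20 h, against 13.7 ± 6.94 CPM in controls (SD, n = 4 and 9), an 8.93-fold difference. That mean rests on replicate 4, without which the 20 h log2 fold change was 2.40 and below the 16 h value. With the library sets as a term the log2 fold change was 2.33 at 16 h and 3.01 at 24 h, both still called. At 48 h the libraries had 122, 14.5, 64.0 and 13.1 CPM, and without 48 h replicate 1 the call was lost (log2 fold change 1.14, adjusted p = 0.143).

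MRC1 (Sscrofa11.1 chromosome 10, 44107926 to 44226734) was not called through 12 h and was called from 16 h on. Its libraries had 8.94 to 14.4 CPM at 4 h, 9.13 to 22.4 CPM at 8 h and 8.70 to 12.6 CPM at 12 h, against 5.93 to 21.5 CPM in controls. The log2 fold changes were -0.03, 0.09 and -0.15, none called. At 16 h it had 50.6, 49.4, 43.2 and 27.6 CPM, all above every control (log2 fold change 1.81 ± 0.33 (SE), edgeR adjusted p = 4.47e-05), the highest group mean. MRC1 was called again at 20 h (1.19 ± 0.34 (adjusted p = 0.00372)), at 24 h (1.48 ± 0.33 (adjusted p = 0.000416)) and in the 48 h libraries (1.14 ± 0.34 (adjusted p = 0.0158)). The 48 h libraries had 56.7, 8.75, 28.2 and 13.2 CPM. That call was lost without replicate 1 (log2 fold change 0.44, adjusted p = 0.501), without replicate 3 (adjusted p = 0.0691), with the library sets as a term (adjusted p = 0.110) and with only the groups compared (adjusted p = 0.0979).

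VSIG4, a complement receptor of the immunoglobulin superfamily known from resident macrophages such as Kupffer cells (Sscrofa11.1 chromosome X, 52175601 to 52198635), was called at 1 of the 7 times, 48 h. Its mean was lower than in controls at 4, 8 and 12 h, with log2 fold changes of -0.92, -0.51 and -0.72, none of them called. The libraries had 2.40, 1.32, 0.292 and 2.52 CPM at 4 h and 6.68, 5.40, 6.34 and 5.29 CPM at 16 h, against 0.978 at the lowest, 2.46 at the median and 7.46 at the highest CPM in control libraries. The 4 h values lay within or below the control range, 1 of them below every control. Those at 16 h lay above all controls except replicate 1, which had 7.46 CPM. The 16 h difference missed the threshold (log2 fold change 0.98 ± 0.43 (SE), edgeR adjusted p = 0.0545) and passed it without control replicate 1 (log2 fold change 1.29, adjusted p = 0.00922). It also passed with DESeq2 (adjusted p = 0.0476), with only the groups compared (adjusted p = 0.0282) and on column totals (adjusted p = 0.0260). At 48 h VSIG4 was called (log2 fold change 1.44 ± 0.43 (SE), edgeR adjusted p = 0.0157) from libraries with 14.5, 1.98, 12.7 and 3.19 CPM, of which replicates 1 and 3 were high. Leaving out replicate 1 or replicate 3 ended that call (adjusted p = 0.221 and 0.133), as did a fit of only the groups compared (adjusted p = 0.0772).

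CD14 encodes the membrane co-receptor that hands bacterial lipopolysaccharide to the TLR4 complex, and it is high on monocytes. CD14 (Sscrofa11.1 chromosome 2, 142348036 to 142349686) had 5.03, 10.9, 11.9 and 3.07 CPM at 4 h, 178, 89.8, 58.3 and 17.4 CPM at 8 h and 51.1, 24.9, 15.6 and 8.93 CPM at 12 h. The 16 h libraries had 86.5, 87.4, 46.5 and 44.7 CPM and the 20 h libraries 22.8, 31.9, 40.8 and 54.5 CPM. At 24 h the values were 57.9, 34.7, 21.3 and 32.4 CPM and at 48 h 49.3, 10.2, 33.8 and 8.50 CPM, while the control libraries had 2.61 at the lowest, 2.95 at the median and 8.25 at the highest CPM. All libraries from 8 to 48 h were above every control. CD14 averaged 85.8 ± 68.0 CPM at 8 h and 4.30 ± 2.23 CPM in controls (SD, n = 4 and 9), a 19.7-fold difference (log2 fold change 4.30 ± 0.47 (SE), edgeR adjusted p = 2.34e-08). It was called at each later time, between 2.53 ± 0.47 (adjusted p = 0.000260) at 12 h and 3.92 ± 0.47 (adjusted p = 1.37e-07) at 16 h. At 4 h it was not called (0.84 ± 0.50 (adjusted p = 0.243)), but it was with the library sets as a term (log2 fold change 2.18, adjusted p = 0.0477). The 6 calls from 8 h on held under every alternative tried, while their sizes moved. With the sets as a term the log2 fold change was smaller for 8 h (3.19) and 16 h (2.67) and larger for 12 h (3.51), 20 h (4.32) and 24 h (3.91). The largest was then at 20 h and not at 8 h. In that fit CD14 was lower in set 2 than in set 1 (log2 fold change -2.83, edgeR adjusted p = 0.00674), beside 870 of the 9411 genes called. No other of the 10 genes was called between set 1 and another set. Without replicate 1 of the time the log2 fold change of CD14 against control was 3.66 at 8 h and 1.92 at 12 h. CD14 reads per CD163 read ran from 0.539 to 2.02 (median 1.20) at 8 h and from 0.404 to 0.705 (median 0.588) at 48 h, against 0.200 to 0.591 (median 0.279) in controls.

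CD68, a glycoprotein of lysosome and endosome membranes and a general phagocyte marker (Sscrofa11.1 chromosome 12, 52874754 to 52877256), was called at 6 of the 7 times. The 8 h libraries had 27.1, 16.7, 13.9 and 8.17 CPM and the 24 h libraries 20.2, 16.7, 33.8 and 22.8 CPM, against control libraries with 1.09 at the lowest, 4.00 at the median and 5.60 at the highest CPM. At 48 h they had 44.4, 5.73, 41.9 and 3.67 CPM, of which replicates 1 and 3 were the highest. All libraries from 8 to 24 h were above every control, and so were 3 of 4 at 48 h. CD68 averaged 23.9 ± 22.2 CPM at 48 h and 3.70 ± 1.28 CPM in controls (SD, n = 4 and 9), a 6.48-fold difference. The gene was called from 8 h (2.15 ± 0.45 (adjusted p = 0.000190)) to 48 h (2.70 ± 0.44 (adjusted p = 7.91e-05)), and missed the threshold at 4 h (1.22 ± 0.46 (adjusted p = 0.0621)). DESeq2 called it at 4 h (adjusted p = 0.0428), as did edgeR with only the groups compared (adjusted p = 0.0298) and without 4 h replicate 4 (adjusted p = 0.0360). With the library sets as a term the 16 h call was lost (log2 fold change 1.59, adjusted p = 0.0874). At 12 h the libraries had 26.3, 9.16, 8.95 and 7.21 CPM, replicate 1 standing apart, and the call was lost without it (log2 fold change 1.19, adjusted p = 0.0816).

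LYZ encodes lysozyme, which cleaves bacterial cell walls and is made by macrophages and neutrophils. LYZ (Sscrofa11.1 chromosome 5, 33612593 to 33618953) had 0.915, 3.47, 2.75 and 0.439 CPM at 4 h and 1.90, 1.04, 1.60 and 0.772 CPM at 8 h. The 12 h libraries had 19.2, 9.26, 3.91 and 3.89 CPM and the 16 h libraries 1.08, 1.21, 0.462 and 0.619 CPM. The course was not smooth. Values were 5.50, 9.94, 9.29 and 20.8 CPM at 20 h, 12.6, 6.93, 24.0 and 7.74 CPM at 24 h and 11.5, 2.29, 9.72 and 0.869 CPM at 48 h, against 0.110 at the lowest, 0.471 at the median and 1.33 at the highest CPM in control libraries. All libraries at 12, 20 and 24 h and 3 of 4 at 48 h were above every control. At 8 h 2 of 4 were, and at 16 h none. LYZ was called at 4 h (1.85 ± 0.61 (adjusted p = 0.0342)) and 12 h (4.08 ± 0.56 (adjusted p = 5.46e-06)). It was also called at 20 h (4.40 ± 0.55 (adjusted p = 3.40e-07)), at 24 h (4.56 ± 0.55 (adjusted p = 1.25e-07)) and at 48 h (3.51 ± 0.56 (adjusted p = 5.91e-05)). At 8 h (1.32 ± 0.64 (adjusted p = 0.0812)) and 16 h (0.66 ± 0.65 (adjusted p = 0.402)) it was not. All 16 h libraries and 3 of 4 at 8 h belonged to library set 1. LYZ reads per CD68 read ran from 0.0372 to 0.115 (median 0.0637) in the 7 injured libraries of set 1, against 0.0946 to 1.01 (median 0.414) in the 21 other injured libraries. The lowest of those 21, 0.0946, was 8 h replicate 4 of set 5, and the other 8 h libraries had 0.0625 to 0.115. In controls the ratio ran from 0.0698 to 0.111 (median 0.0904) in the 2 libraries of set 1 and from 0.0196 to 0.400 (median 0.194) in the other 7. With the sets as a term LYZ was at 0.92 (adjusted p = 0.480) at 16 h and 3.79 (adjusted p = 0.000230) at 12 h, with 5.16 at 24 h and 4.32 at 48 h. In that fit LYZ was not called between set 1 and any other set (edgeR adjusted p of 0.717 or higher). DESeq2 called it at 8 h (adjusted p = 0.0495), and without 12 h replicate 1 the 12 h log2 fold change was 3.40. The 4 h call was lost without 4 h replicate 2 (adjusted p = 0.185) or replicate 3 (adjusted p = 0.127). It was also lost without control 2 or 6 (adjusted p = 0.0549 and 0.0512), with the sets as a term (adjusted p = 0.116) and on column totals (adjusted p = 0.0715).

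**Figure D3:**
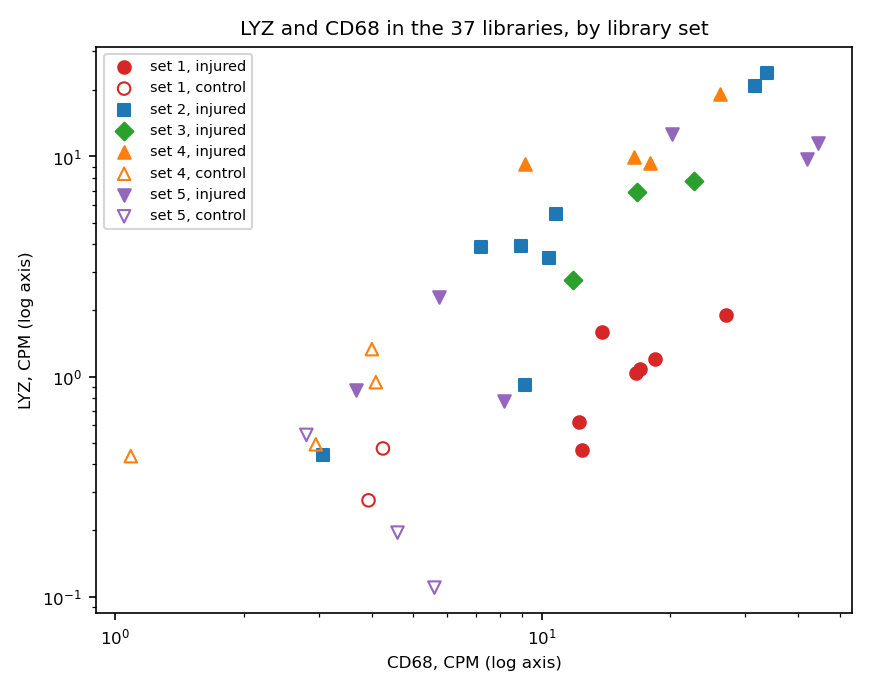
LYZ (vertical axis) against CD68 (horizontal axis) in CPM, both on log axes, 1 point for each of the 37 libraries, with shape and colour for the library set, filled for injured and open for control. The 7 injured libraries of set 1, all from 8 and 16 h, lie low in LYZ for their CD68, with ratios between 0.0372 and 0.115, and the other 21 between 0.0946 and 1.01. The ratio of 0.0946 belongs to 8 h replicate 4, in set 5.

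**Figure D4:**
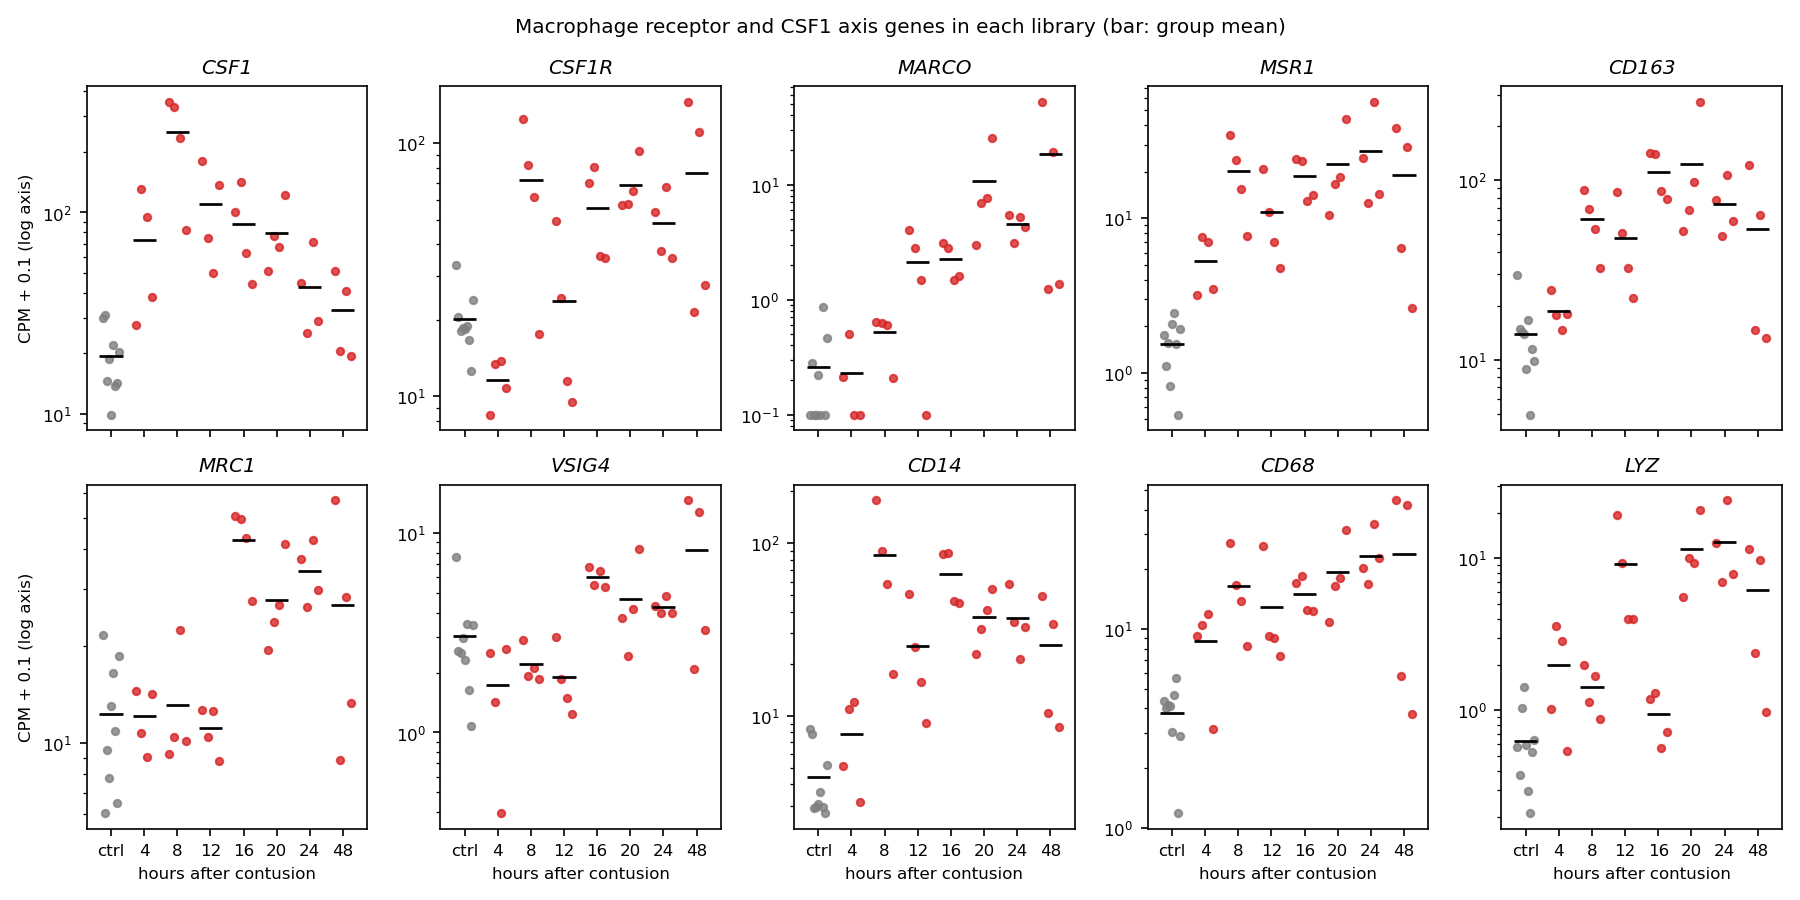
CPM of each of the 10 genes in all 37 libraries on a log axis, with 0.1 CPM added so that counts of 0 can be drawn, 1 panel per gene, by group from control to 48 h, with a bar at the group mean. MSR1 is above every control in all 28 injured libraries, and at 48 h replicates 1 and 3 lie above replicates 2 and 4 for all 10 genes.

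Non-overlap with the controls was also counted, without the fitted model but on the same TMM-scaled values of the same libraries. At 4 h all 4 libraries were above all 9 controls for 1 of the 10 genes, MSR1 (2.28% of all genes). The count was 5 at 8 h (13.8%) and 5 at 12 h (6.04%). It was then 8 of 10 at 16 h (17.2%), 20 h (14.2%) and 24 h (16.4%), and 3 at 48 h (1.41%). The 3 at 48 h were MARCO, MSR1 and CD14. With the library sets as a term, 4 of the 10 genes were called at 16 h, beside 27.4% of all genes. Within library set 1, all 3 libraries at 8 h were above both controls of the set for 8 of the 10 genes (32% of all genes), and all 4 at 16 h for 8 (27.5%). Within set 4, both 12 h libraries were above its 4 controls for 8 genes (24%) and both 20 h libraries for 9 (30.1%). Within set 5, all 48 h libraries were above its 3 controls for MARCO, MSR1, CD14 and LYZ (6.07%). The 24 h library was above them for all 10 genes (38.1%), and 8 h replicate 4 for 6 (32%). CSF1 in set 1 had 234 to 354 CPM at 8 h and 44.0 to 142 CPM at 16 h, against 30.0 to 30.8 CPM in its 2 controls. CD14 in set 4 had 24.9 to 51.1 CPM at 12 h and 31.9 to 40.8 CPM at 20 h, against 2.61 to 2.95 CPM in its 4 controls.

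Between successive times, 12 differences among the 10 genes were called, 5 of them from 4 to 8 h. CSF1 (1.78 ± 0.49 (adjusted p = 0.00817)) and CSF1R (2.63 ± 0.53 (adjusted p = 0.00102)) were higher at 8 h than at 4 h. So were MSR1 (1.94 ± 0.62 (adjusted p = 0.0181)), CD163 (1.71 ± 0.56 (adjusted p = 0.0212)) and CD14 (3.45 ± 0.62 (adjusted p = 0.000431)), beside 16% of all genes. Of the 8 fits that left out 1 library of either time, the MSR1 call was lost in 3 (adjusted p up to 0.0853) and the CD163 call in 2 (adjusted p up to 0.0769). The losses came without 4 h replicates 1 and 4 and 8 h replicate 1 for MSR1, and without 4 h replicate 4 and 8 h replicate 1 for CD163. From 8 to 12 h LYZ was called higher, at 2.76 ± 0.68 (adjusted p = 0.0111), beside 7.14% of all genes. CSF1R (-1.59 ± 0.51 (adjusted p = 0.0385)) and CD14 (-1.77 ± 0.57 (adjusted p = 0.0399)) were called lower, beside 4.95%. Those decreases in CSF1R and CD14 were each lost in 6 of the 8 fits that left out 1 library of either time, all but those without 8 h replicate 4 and 12 h replicate 1. From 12 to 16 h MRC1 (1.95 ± 0.42 (adjusted p = 0.00372)) and VSIG4 (1.70 ± 0.55 (adjusted p = 0.0370)) were called higher (4.72%), and LYZ was called lower, at -3.42 ± 0.69 (adjusted p = 0.00231) (9.51%). The VSIG4 call was lost in 6 of the 8 such fits, all but those without 12 h replicate 1 and 16 h replicate 4. From 16 to 20 h LYZ was called higher (3.74 ± 0.70 (adjusted p = 0.00334)), beside 1.01% of all genes. From 20 to 24 h and from 24 to 48 h edgeR called none of the 10 in either direction, beside 3.21% and 19.5% of all genes. At an unadjusted p under 0.05 there were 0 and 1, that 1 being MARCO from 24 to 48 h (2.08 ± 0.83 (adjusted p = 0.0740)). With the library sets as a term none of the 12 differences was called by edgeR, and 6 of 60 tests had an unadjusted p under 0.05. Over all genes edgeR then called 0% in each of the 4 steps up to 20 h, where 548 to 873 genes had an unadjusted p under 0.05, 0.574% from 20 to 24 h and 8.95% from 24 to 48 h. The 12 differences all fall in the 4 steps up to 20 h, in each of which the times compared share no library set. With the sets as a term these steps were reached only through controls and libraries of other times. Sets and times cannot be told apart there.

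At 48 h against 8 h, MARCO (5.40 ± 1.05 (adjusted p = 0.000178)) and MRC1 (1.05 ± 0.41 (adjusted p = 0.0450)) were called higher. VSIG4 (1.95 ± 0.55 (adjusted p = 0.00539)) and LYZ (2.20 ± 0.67 (adjusted p = 0.00993)) were too, beside 20.5% of all genes. CSF1 (-2.93 ± 0.52 (adjusted p = 6.47e-05)) and CD14 (-1.74 ± 0.57 (adjusted p = 0.0158)) were called lower, beside 16.9%. The remaining 4 genes, CSF1R, MSR1, CD163 and CD68, had log2 fold changes of 0.10, -0.08, -0.18 and 0.55, none called. With the sets as a term, where 20.6% of all genes were called, 3 of the 6 calls held. MRC1 (adjusted p = 0.124), CD14 (adjusted p = 0.807) and LYZ (adjusted p = 0.0595) were lost. The 48 h libraries share a set with only 1 of the 8 h libraries, replicate 4, which had the lowest CD14 of that time (17.4 CPM). Of the 8 fits that left out 1 library of either time, MRC1 was lost in 5 (adjusted p up to 0.492), those without 8 h replicates 1, 2 and 4 and 48 h replicates 1 and 3. CD14 was lost in 3, those without 8 h replicate 1 (log2 fold change -1.11, adjusted p = 0.141) and 48 h replicates 2 and 4, and LYZ in 1, without 48 h replicate 1 (adjusted p = 0.0531). CD14 was lost on column totals (adjusted p = 0.133), and MRC1, CD14 and LYZ with only the groups compared (adjusted p = 0.195, 0.115 and 0.0541). MARCO was at 4.03 without 48 h replicate 1.

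Each gene's 8 groups were also ordered by mean, and neighbours in that order were tested. Of 7 neighbouring pairs per gene, 1 differed past the threshold for MSR1 (4 h over control) and 1 for MRC1 (48 h over 8 h). None did for the other 8 genes. Neighbours have the closest means in these same data, so few calls were built in. The order of neighbouring times is thus mostly undecided, and these tests do not bear on times further apart in it. At 48 h CSF1 stood at 13.1% of its 8 h mean, CD14 at 29.7%. At 8 h MARCO stood at 2.27% of its 48 h mean, MRC1 at 30.4% of its 16 h mean and LYZ at 10.3% of its 24 h mean.

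**Figure D5:**
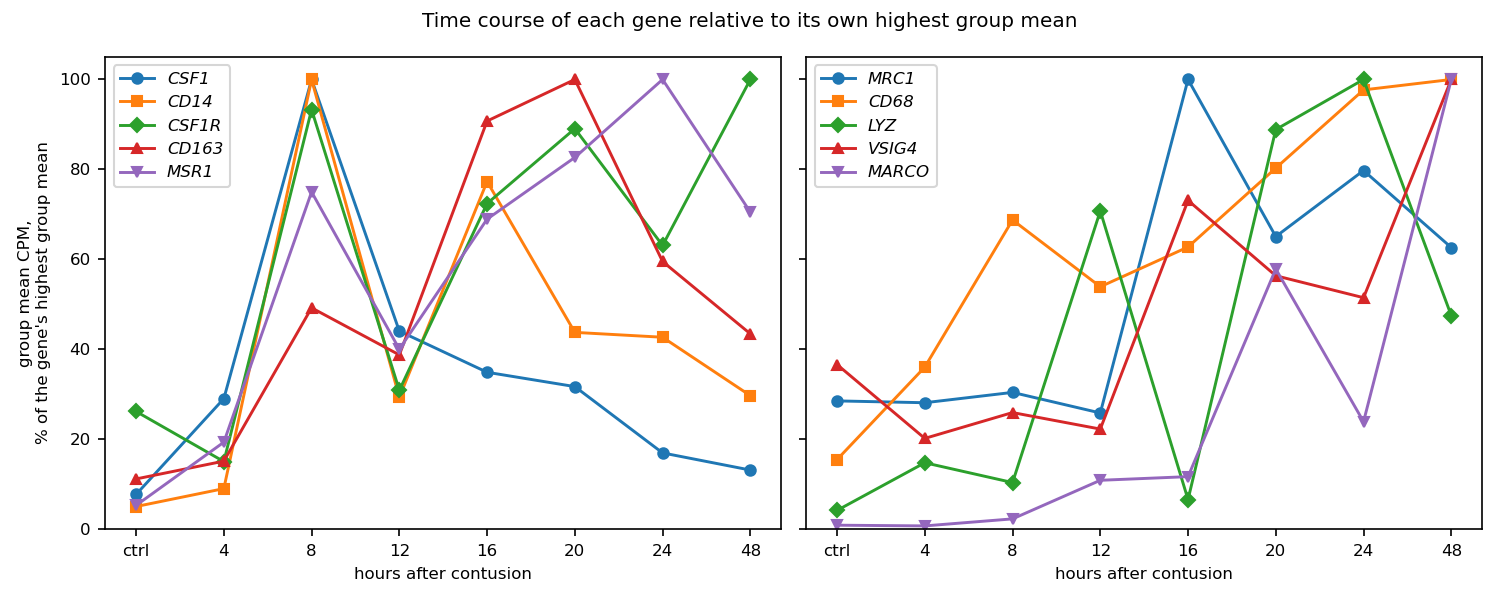
Mean CPM of each of the 10 genes at each time, as a percentage of that gene's highest group mean, from control to 48 h on a linear axis. CSF1 and CD14 reach 100% at 8 h and MARCO, CSF1R, VSIG4 and CD68 at 48 h.

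The 4 libraries at 48 h divided into pairs. In replicates 1 and 3 all 10 genes were above the highest control, against 5 in replicate 2 and 3 in replicate 4. Over all genes tested the share above the highest control was 28.2% and 23.3% in replicates 1 and 3, against 6.82% and 6.04% in replicates 2 and 4. The 15 other macrophage markers summed to 1939.7 and 1098 CPM in replicates 1 and 3 and to 249.7 and 129.7 CPM in replicates 2 and 4, against 64.3 to 127 CPM in controls. The 7 muscle fibre genes went the other way, with 25954 and 38206 CPM in replicates 1 and 3 and 91669.7 and 71618 CPM in 2 and 4, against 69254 to 113996 CPM in controls. At 8 h replicate 4 was the lowest library for all of the 10 genes but MRC1 (10.0 CPM, against 9.13 CPM in replicate 1). For VSIG4 it was only slightly lower (1.77 CPM, against 1.82 CPM in replicate 2). The other macrophage markers summed to 129 CPM in 8 h replicate 4, against 881, 646 and 384 CPM in replicates 1 to 3. Replicate 4 was in library set 5 and replicates 1 to 3 in set 1, so set and cell mix cannot be told apart there. The part of the cell mix in these splits was not tested.

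Genes of the same pathways, from lists chosen with earlier results of these data known and holding none of the 10, were counted beside them. Only listed genes with a row could be counted, 15 of 30 for the scavenger and uptake receptors and 10 of 19 for the complement partners. The shares of all genes tested that were called higher and lower, to be read beside each count, were 25.8% and 28.2% at 8 h, 25.3% and 27.8% at 16 h, 26.8% and 27.1% at 24 h and 12.8% and 7.45% at 48 h. Of 28 genes of the CSF1 receptor pathway and macrophage transcription factors, 19 were called higher and 2 lower at 8 h (median log2 fold change 1.52). At 16 h it was 20 and 1 (median 1.68), and at 48 h 12 and 0 (median 0.86). RUNX1, a transcription factor of blood cell development, was at 5.49 ± 0.50 (adjusted p = 8.55e-10) at 8 h and 3.05 ± 0.48 (adjusted p = 4.37e-05) at 48 h. STAT3, a cytokine signal transducer, was at 2.95 ± 0.26 (adjusted p = 5.52e-10) at 8 h and 0.32 ± 0.27 (adjusted p = 0.419) at 48 h. CEBPB, a factor of myeloid differentiation, was at 2.59 ± 0.36 (adjusted p = 7.45e-07) at 8 h and -0.22 ± 0.38 (adjusted p = 0.734) at 48 h. Of 15 scavenger and uptake receptors, 4 were called higher and 2 lower at 8 h, near the 25.8% of all genes for higher calls, and 8 and 1 at 48 h. The apoptotic cell receptor MERTK rose at 8 h (2.69 ± 0.45 (adjusted p = 1.14e-05)). The endocytic receptor STAB1 was at -0.51 ± 0.32 (adjusted p = 0.178) at 8 h and 1.50 ± 0.29 (adjusted p = 0.000552) at 48 h. CD36, the fatty acid transporter and scavenger receptor that muscle fibres and endothelium also make, fell at 8 h (-2.19 ± 0.39 (adjusted p = 2.40e-05)) and 24 h (-1.77 ± 0.38 (adjusted p = 0.000245)).

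Of 14 endotoxin receptor genes, 10 were called higher and 0 lower at 8 h, and 8 and 1 at 48 h. TLR2 (2.93 ± 0.48 (adjusted p = 9.45e-06)) and the adaptor MYD88 (2.04 ± 0.28 (adjusted p = 6.39e-07)) rose at 8 h, and LY96, the partner of TLR4 in binding lipopolysaccharide, rose later (2.29 ± 0.28 (adjusted p = 1.63e-07) at 24 h). Of 19 lysosomal proteins of phagocytes, 7 were called higher and 2 lower at 8 h, and 15 and 1 at 24 h and 15 and 0 at 48 h. The median log2 fold change of these genes was 0.41 at 8 h, 1.29 at 24 h and 0.94 at 48 h. The protease gene CTSL was at 4.50 ± 0.57 (adjusted p = 2.23e-07) at 8 h, whereas GPNMB, a lysosomal membrane glycoprotein, was at 0.93 ± 0.46 (adjusted p = 0.0831) at 8 h and 3.95 ± 0.44 (adjusted p = 6.45e-07) at 48 h. Of 13 haemoglobin and haem handling genes, 3 were called higher and 3 lower at 8 h, 7 and 2 at 24 h and 2 and 0 at 48 h. The counts at 8 and 48 h are near the shares of all genes. SLC11A1, a phagosomal metal transporter, rose (5.48 ± 0.72 (adjusted p = 3.94e-07) at 24 h) and the transferrin receptor gene TFRC fell (-4.09 ± 0.66 (adjusted p = 7.82e-06) at 24 h). Of 10 complement partners, 6 were called higher and 0 lower at 8 h, and 7 and 0 at 48 h. Among them was ITGB2, the shared chain of complement receptors of leukocytes (2.97 ± 0.44 (adjusted p = 2.37e-06) at 8 h). C1QB, a chain of the initiating complement protein, was at -0.74 ± 0.37 (adjusted p = 0.0893) at 8 h and 1.17 ± 0.33 (adjusted p = 0.0135) at 48 h.

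Markers of other cell types, and other markers of macrophages, were counted in the same way, beside 25.8% of all genes called higher and 28.2% called lower at 8 h, 26.8% and 27.1% at 24 h and 12.8% and 7.45% at 48 h. Rows existed for 15 of 23 listed macrophage, 6 of 20 neutrophil, 3 of 12 dendritic cell and 1 of 15 lymphocyte markers. As every row reaches at least 101 counts in some library, a marker low in all controls has a row only if it was high in an injured library. Of 15 other macrophage markers, 12 were called higher at 8 h, 13 at 24 h and 13 at 48 h, and none lower at these times. At 24 h SPP1, which encodes osteopontin, was at 6.84 ± 0.84 (adjusted p = 1.54e-07) and TREM2, a lipid-sensing receptor, at 5.42 ± 0.72 (adjusted p = 4.96e-07). Of the 6 neutrophil markers with a row, 6 were called higher at 8 h, 4 at 24 h and 1 at 48 h, counts that the need for a row partly fixes. Their sum was 18.1 to 298 CPM at 8 h, 12.5 to 55.4 CPM at 24 h and 2.80 to 43.4 CPM at 48 h, against 1.37 to 12.3 CPM in controls. Neutrophils and monocytes also make CD14 and LYZ, so the neutrophil sums stand beside those genes and their part was not tested. The 1 lymphocyte marker tested, NKG7, was called from 8 h (1.91 ± 0.42 (adjusted p = 0.000313)), and of 3 dendritic cell markers CD86, which macrophages also carry, was called at 8 h (2.77 ± 0.55 (adjusted p = 0.000116)). Of 12 fibroblast and mesenchymal progenitor markers, 1 was called higher and 8 lower at 8 h and 0 and 2 at 48 h. Of 11 endothelial markers, it was 0 and 3 at 8 h, the 3 being near the share of all genes called lower, and 0 and 1 at 48 h. Fibroblast marker sums were 1040.4 to 3414 CPM at 8 h, against 2383 to 9005 CPM in controls. Fibroblasts and endothelium also make CSF1, whose mean was highest at 8 h, and which cells its RNA came from was not tested. Of 7 muscle fibre markers, 1 was called higher and 2 lower at 8 h and 0 and 5 at 24 h. Of 5 satellite cell markers it was 1 and 1 at 8 h and 2 and 2 at 24 h, and of 3 blood markers 0 and 1 at both times.

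Levels of the 10 genes were compared across all 37 libraries by Pearson's r of log2(CPM + 0.5), as a description in which libraries share group, depth and set. Of the 45 pairs, MSR1 and CD68 were the most alike (r = 0.94), and CSF1 and VSIG4 the least (r = -0.02). CSF1 and CSF1R had r = 0.48. Among all genes tested, those most like CSF1 were SOX9 (r = 0.97), SLC1A5 (r = 0.97) and PLAU (r = 0.96), and those most like CSF1R were ARHGAP45 (r = 0.97), ARHGAP4 (r = 0.93) and UNC93B1 (r = 0.93). For MARCO they were TREH (r = 0.94), TREM2 (r = 0.94) and GNPTAB (r = 0.91), and among those for MSR1 were GIMAP4 (r = 0.97) and SLC11A1 (r = 0.97). For CD163 they were PYCARD (r = 0.96), CNDP2 (r = 0.96) and TYROBP (r = 0.95), and for MRC1 LTBP1 (r = 0.90), CMTM3 (r = 0.86) and DPY19L1 (r = 0.86). For VSIG4 they were STAB1 (r = 0.84), PLEKHA2 (r = 0.82) and EPB41L3 (r = 0.82), and for CD14 SH3BP2 (r = 0.98), CTRC (r = 0.96) and ARPC1B (r = 0.95). Among those for CD68 were MSR1 (r = 0.94) and SLC11A1 (r = 0.93), and for LYZ they were LY6G6C (r = 0.85), TREH (r = 0.84) and CTSH (r = 0.83).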

How the data were processed

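RNA sequencing of flash-frozen skeletal muscle was done, per the labels' protocols, with NEBNext Ultra libraries read as 150 bp pairs. The submitters' processing notes name HISAT2 2.2.1, HTSeq, Trimmomatic, FastQC and MultiQC, with Sscrofa11.1 as the genome build. Neither a strand setting nor an annotation release is stated, so reads of overlapping genes cannot be told apart. The authors deposited 1 table of raw counts, in which every row reaches at least 101 counts in some library, so column totals are not the sequencing depth. All 37 libraries were scaled by TMM, filtered with filterByExpr and fitted by edgeR 4.0.16 (R 4.3.3, limma 3.58.1), robust, with group as the sole factor. DESeq2 1.42.0, other size factors, no filter, column totals alone, only the groups compared, a replicate block, the 5 library sets as a term and leave-one-out fits were alternatives. Scripts were tested on simulated data. The sets were derived from these expression values. Set 3 has column totals over 20 M, set 1 has C1QBP over 8 CPM, set 2 has NDUFAF8 under 4 CPM, and of the rest set 4 has ND6 up to 32 CPM and set 5 has more. Libraries in a group were compared pairwise, and none was as alike as sampling noise (lowest chi-square per degree of freedom 16.1). Replicate numbers were not used to pair libraries (median correlation of same-numbered deviations 0.04). All 10 genes are named; from each list up to 4 genes with the smallest joint p are eligible, and for each gene the 3 most alike, of which 1 gene is not reported here. The genes, lists and tests were chosen with earlier results of these data known. Coordinates are RefSeq spans in Sscrofa11.1.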

Additional observations from a re-analysis of the deposited data

Results flagged for a closer look

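Of 80 checks of the 10 genes in the 8 groups, 6 showed a library far from the others of its group, where chance flags about 1 in 20. MARCO was 0.769 CPM in control 7, while the other libraries of the group had 0 to 0.362 CPM. MARCO was 0.110 CPM in 8 h replicate 4, while the other libraries of the group had 0.504 to 0.542 CPM. CD163 was 29.5 CPM in control 1, while the other libraries of the group had 4.83 to 16.6 CPM. MRC1 was 22.4 CPM in 8 h replicate 3, while the other libraries of the group had 9.13 to 10.3 CPM. VSIG4 was 7.46 CPM in control 1, while the other libraries of the group had 0.978 to 3.42 CPM. CD68 was 26.3 CPM in 12 h replicate 1, while the other libraries of the group had 7.21 to 9.16 CPM. Both CD163 and VSIG4 were high in control 1, without which the VSIG4 difference at 16 h passed the threshold.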

How the results depend on the processing

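Of the 51 calls of the 10 genes against control, 36 held under every alternative and 15 were lost under at least 1; no call changed sign. In 70 tests each, DESeq2 size factors and no filter changed none, DESeq2 gained 3, column totals lost 1 and gained 2, and the sets as a term lost 8 and gained 1. Fitting only the groups compared lost 2 and gained 3 of the 64 that passed its filter. A fit without 48 h replicates 2 and 4 is counted among the alternatives at 48 h, where it ended no call. It is not used otherwise, since both libraries are low in these same genes. With the sets as a term the count of genes called fell to 4 at 16 h (8 without), to 3 at 48 h against 8 h (6 without, and 3 when only the groups compared were fitted) and to 0 over the successive times (12 without). The sets and the times cannot be told apart where a time lies in 1 set. The same holds where the times compared share no set, as in each step up to 20 h. For CD14 from 8 to 12 h the sets term turned the direction (log2 fold change 0.32, adjusted p = 0.927). That difference was reached only through controls and libraries of other times. Leaving out 1 library gave 1 to 4 genes at 4 h (3 in all libraries) and 5 to 9 at 48 h (9 in all libraries). Same-numbered libraries correlated by -0.60 to 0.60, so the replicate block was not the design; it ended 6 calls, LYZ at 4 h (adjusted p = 0.246), CD163 at 12 h (0.0563) and 48 h (0.0644), CSF1 (0.161) and CSF1R (0.0561) at 24 h and VSIG4 at 48 h (0.128), and gained none. It also ended MRC1 at 48 h against 8 h (adjusted p = 0.0759), and put VSIG4 at 4 h at -1.21 (unadjusted p = 0.0306, adjusted p = 0.111, from edgeR). On column totals the median log2 change over all genes moved by -0.15 at 4 h and by 0.33 to 0.48 between 16 and 48 h, so every direction here is one on the TMM scale. Calls higher and lower over all genes then split 354 and 1337 (868 and 853 with TMM) at 4 h, 3645 and 1355 (2380 and 2615 with TMM) at 16 h, 3620 and 1456 (2389 and 2462 with TMM) at 20 h, 4538 and 1178 (2521 and 2550 with TMM) at 24 h, 3050 and 298 (1205 and 701 with TMM) at 48 h and 3829 and 534 (1925 and 1589 with TMM) at 48 h against 8 h. MARCO and LYZ rest on few control counts, and 4 libraries at a time limit what can be detected.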
